A study of Mus musculus with 8 samples.

Results

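Meiotic chromosomes are tied by their ends to the nuclear envelope, and the 9 genes described here encode that attachment. They are *Terb1*, *Terb2* and *Majin* (the telomere attachment complex), *Spdya* and *Cdk2* (an activator and its kinase), *Sun1* and *Ccdc155* (the bridge through the envelope; *Ccdc155* is the older symbol of *Kash5*), and *Terf1* and *Terf2* (telomere DNA-binding proteins of shelterin). They were chosen by symbol, and all 9 were among the 25239 gene symbols counted and the 14249 genes tested.

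RNA-Seq had been carried out on whole E14.5 fetal ovaries of C57BL/6 mice. The 4 control libraries were *Bmpr1a* fl/fl, and the 4 *Bmpr1a*-cKO libraries were *Bmpr1a* fl/fl; Oct4-Cre Cre/WT, in which an inducible Cre driven by *Oct4* removes the BMP type I receptor BMPR1A from germ cells. Both genotypes carried the floxed alleles and came from dams given 1 mg of 4-hydroxytamoxifen and 0.5 mg of progesterone at 9.5 dpc and again at 10.5 and 11.5 dpc, so neither group was untreated. Each library pooled the ovaries of 2 embryos, and 8 embryos of each genotype were drawn from 6 litters. The labels do not say which litter a library came from, so the p-values below measure the spread between these pools. The somatic cells of a *Bmpr1a*-cKO ovary keep the receptor gene. *Bmpr1a* itself was at 199 to 237 CPM (the read count of a gene scaled to the size of its library, with TMM factors) in controls and 185 to 209 CPM in *Bmpr1a*-cKO libraries, and in a whole ovary this does not check the deletion in germ cells. The depth was 10622684 to 15365052 counts per control library and 8562961 to 14887102 per *Bmpr1a*-cKO library, and 3 counts, taken as the floor of detection, were worth 0.189 to 0.358 CPM.

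In early meiotic prophase the telomeres leave the nuclear interior and become anchored in the inner nuclear membrane. TRF1 and TRF2 bind the telomere repeat in all cells. TERB1 joins TRF1, TERB2 links TERB1 to MAJIN, and MAJIN spans the inner membrane. Speedy A, the product of *Spdya*, brings CDK2 to the telomere. SUN1 crosses the inner membrane and KASH5 the outer one, where KASH5 recruits dynein, and the resulting movement helps homologous chromosomes find each other. In the mouse ovary this begins around the stage sampled here.

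Of the 9 genes, 5 were downregulated in *Bmpr1a*-cKO ovaries, 0 were upregulated and 4 were not called. The 5 were all 3 genes of the attachment complex, *Spdya* and *Ccdc155*, whose products act at meiotic telomeres, and by the fitted fold change they fell to between 25.3% and 47.9% of control. *Sun1*, *Terf1*, *Terf2* and *Cdk2*, which are also used outside meiosis, had Log2FCs between 0.019 and 0.16. None of these 4 had an unadjusted p below 0.05 in edgeR, and DESeq2 and limma-voom also called 0 of the 9 upregulated. A gene was called (a DEG, differentially expressed gene) at an absolute Log2FC over 0.5 and an FDR below 0.05 in edgeR's quasi-likelihood test with Benjamini-Hochberg adjustment, made over the whole set of genes tested. By this rule 4.06% of all genes tested were downregulated and 6.11% upregulated. In each of the 5, all 4 *Bmpr1a*-cKO libraries lay below all 4 control libraries, as was so for 11.7% of all genes tested. The median Log2FC was -1.06 over the 9 genes and -0.0042 over all genes tested.

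**Figure D1:**
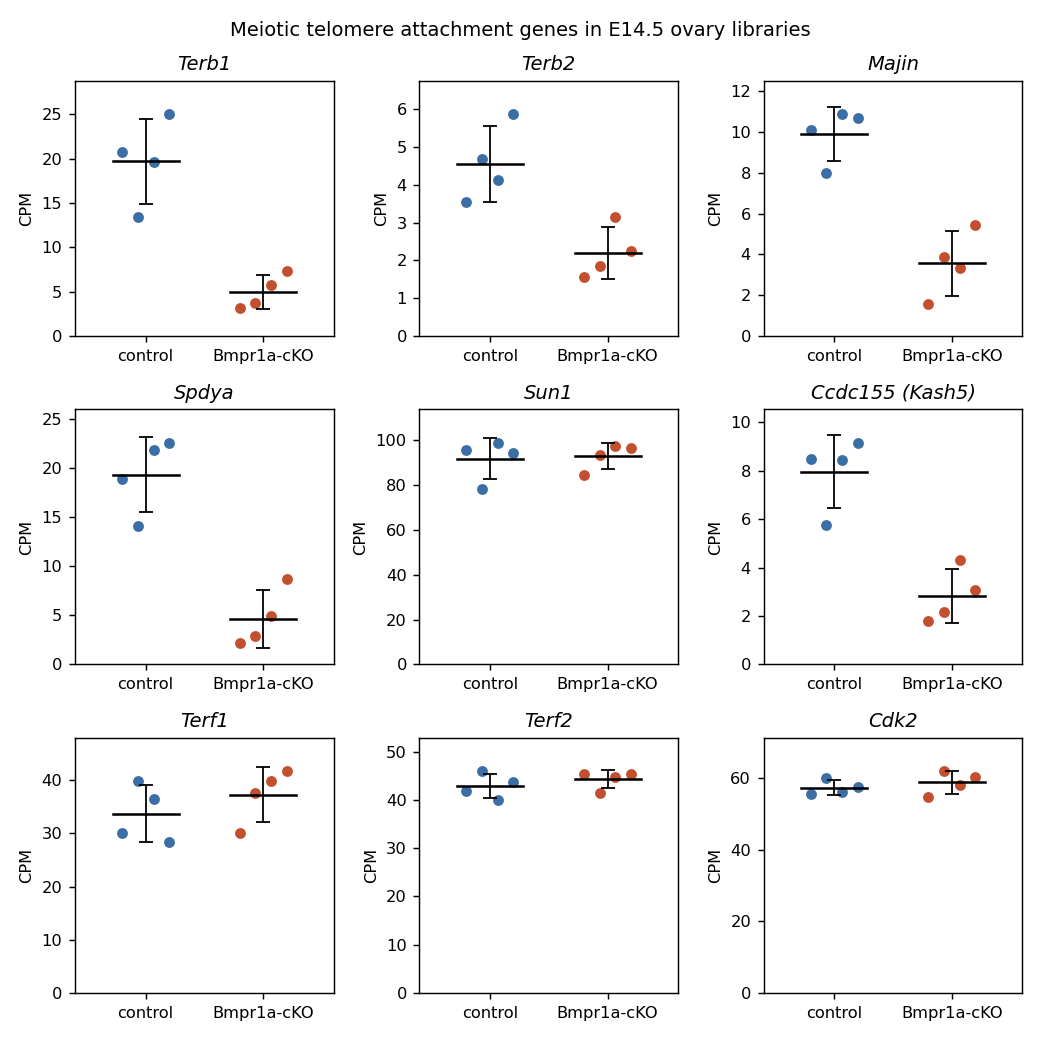
CPM of each of the 9 genes (vertical axis, from 0, TMM-scaled) in the 4 control and 4 *Bmpr1a*-cKO libraries. Points are libraries in replicate order from left to right, wide bars are means and error bars are SD; for *Terb1*, *Terb2*, *Majin*, *Spdya* and *Ccdc155* every *Bmpr1a*-cKO point lies below every control point, and for the other 4 genes the groups overlap.

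RefSeq promoters (GRCm38.p6, 250 bases before to 50 after the start) were at hand for 6 of the 9 genes, *Terb2*, *Majin* and *Terf1* being the others. They were searched on both strands for 4 sequences: CNCCTCAG, bound by the meiotic initiator STRA8 (in 7.94% of 32851 RefSeq promoters), the E-box CACGTG (7.15%), the E2F sequence GGCGGGAA (2.19%) and the GC-rich SMAD sequence GGCGCC (11.9%). *Sun1* and *Terf2* had 2 promoters each. The first sequence was found in the promoters of *Spdya* and *Cdk2* and in 1 of the 2 of *Sun1* (the upstream one, shown here), each time on the strand opposite to the gene. The second *Sun1* promoter (chr5:139214908-139215207) held none of the 4 sequences, and the other 3 sequences were in no promoter of the 6 genes. The following windows, 100 bases before to 50 after the start, 5′ to 3′ on the strand of the gene, set 2 downregulated genes without any of these sequences beside 1 downregulated gene and 2 genes not called that hold the STRA8 sequence (in capitals, as its reverse complement). They are *Terb1* (chr8:104509838-104509987, minus strand), *Ccdc155* (chr7:45204843-45204992, minus strand), *Spdya* (chr17:71551961-71552110, plus strand), *Sun1* (chr5:139200537-139200686, plus strand) and *Cdk2* (chr10:128705002-128705151, minus strand).
Terb1: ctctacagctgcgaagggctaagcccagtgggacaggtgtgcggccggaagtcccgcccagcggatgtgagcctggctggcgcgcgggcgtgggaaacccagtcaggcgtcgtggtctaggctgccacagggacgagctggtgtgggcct
Ccdc155: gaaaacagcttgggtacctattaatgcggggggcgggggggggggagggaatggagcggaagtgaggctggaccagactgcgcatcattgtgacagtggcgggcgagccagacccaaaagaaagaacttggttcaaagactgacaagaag
Spdya: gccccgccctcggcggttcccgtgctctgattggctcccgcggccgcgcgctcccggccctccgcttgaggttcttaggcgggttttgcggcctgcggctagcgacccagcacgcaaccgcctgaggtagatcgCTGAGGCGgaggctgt
Sun1: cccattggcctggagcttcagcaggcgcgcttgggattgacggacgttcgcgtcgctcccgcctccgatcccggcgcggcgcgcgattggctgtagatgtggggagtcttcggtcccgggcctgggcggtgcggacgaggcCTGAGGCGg
Cdk2: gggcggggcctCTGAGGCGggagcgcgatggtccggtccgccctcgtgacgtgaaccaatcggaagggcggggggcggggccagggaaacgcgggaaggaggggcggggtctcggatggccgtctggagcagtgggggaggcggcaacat
The match began 35 bases after the start in *Spdya*, 42 after it in *Sun1* and 89 before it in *Cdk2*. The sequence was present in a gene that fell and in others that were not called, and it was absent from these windows of *Terb1* and *Ccdc155*. The G and C content of the 300-base promoters was 69.7% in *Spdya*, 64.7% in *Cdk2*, 71.3% and 45.3% in the first and second of *Sun1*, 59.3% in *Terb1*, 52.7% in both of *Terf2* and 52.3% in *Ccdc155*. The median over all RefSeq promoters was 52.7%. The promoters that held the STRA8 sequence lay above it, as did that of *Terb1*, so the share of 7.94% is not matched to their G and C content. A match of letters is a description of the window and not a binding site.

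*Terb1* encodes the telomere repeat-binding bouquet formation protein that docks on TRF1. It lies at chr8:104446719-104509910 on the minus strand (mm10, GENCODE vM21; 20 merged exons). The 4 control libraries held 20.7, 13.5, 19.6 and 25.0 CPM (replicates 1 to 4, the order used throughout), and the 4 *Bmpr1a*-cKO libraries 3.10, 3.72, 5.76 and 7.30 CPM. The groups were well separated, since the lowest control library was still above the highest *Bmpr1a*-cKO library. Mean CPM was 19.7 ± 4.76 in controls and 4.97 ± 1.92 in *Bmpr1a*-cKO ovaries (SD, n = 4 each here and below). The Log2FC was -1.96 (SE 0.22; 95% interval -2.43 to -1.49; FDR = 1.26e-05, edgeR's quasi-likelihood test), a 3.88-fold lower level. This ranked 25 from the lowest Log2FC among 14249 genes.

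*Terb2*, the adaptor between TERB1 and MAJIN, lies at chr2:122186272-122206397 on the plus strand (7 merged exons). It had the lowest mean CPM of the 9 genes, from 13 to 93 counts per library. Its CPM was 3.54, 4.69, 4.12 and 5.87 in controls and 1.55, 1.86, 3.14 and 2.25 in *Bmpr1a*-cKO libraries. Only a small gap separated the lowest control library (replicate 1) from the highest *Bmpr1a*-cKO library (replicate 3). The mean fell from 4.55 ± 0.996 to 2.20 ± 0.689 CPM, a Log2FC of -1.06 (SE 0.23; 95% interval -1.55 to -0.58; FDR = 0.00253, edgeR), which was the smallest change of the 5 downregulated genes.

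*Majin*, the membrane-anchored subunit, lies at chr19:6184388-6224225 on the plus strand (11 merged exons). Control libraries held 10.1, 7.97, 10.9 and 10.7 CPM, against 1.55, 3.87, 3.35 and 5.46 CPM in *Bmpr1a*-cKO libraries. The controls were close together, while the *Bmpr1a*-cKO libraries ranged widely around a lower level and did not reach any control. Mean CPM was 9.90 ± 1.33 and 3.56 ± 1.61, with a Log2FC of -1.40 (SE 0.23; 95% interval -1.88 to -0.92; FDR = 0.000277, edgeR), or 37.8% of control.

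*Spdya* encodes Speedy A, a CDK activator that is not a cyclin, and lies at chr17:71552061-71589533 on the plus strand (7 merged exons). It was at 18.9, 14.1, 21.8 and 22.6 CPM in controls and 2.15, 2.90, 4.92 and 8.73 CPM in *Bmpr1a*-cKO libraries. *Bmpr1a*-cKO replicate 4 stood highest of its group but remained under every control. Mean CPM was 19.4 ± 3.86 and 4.68 ± 2.95. The Log2FC of -1.98 (SE 0.27; 95% interval -2.56 to -1.40; FDR = 7.80e-05, edgeR) was the lowest of the 9 genes and ranked 22 among all genes tested. In the annotation, 250 exon bases of *Spdya* are shared with the pseudogene *Mettl4-ps1* on the same strand and 402 with a *Trmt61b* antisense transcript. Whether reads were counted by strand is not given in the sources used here, so reads from these overlaps could not be assigned with certainty.

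*Cdk2*, the kinase that Speedy A activates and that also drives the mitotic cell cycle with cyclins, lies at chr10:128697939-128705031 on the minus strand (5 merged exons, of which 34 bases overlap *Pmel* on the other strand). Its CPM was 55.7, 60.2, 56.2 and 57.6 in controls and 54.8, 62.0, 58.1 and 60.5 in *Bmpr1a*-cKO libraries. The groups interleaved. Mean CPM was 57.4 ± 2.01 and 58.9 ± 3.13, with a Log2FC of 0.039 (95% interval -0.096 to 0.17; FDR = 0.694, edgeR).

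The outer-membrane protein KASH5 is encoded by *Ccdc155* at chr7:45183624-45204892 on the minus strand (20 merged exons). Libraries of control ovaries held 8.47, 5.76, 8.43 and 9.15 CPM, and those of *Bmpr1a*-cKO ovaries 1.79, 2.16, 4.29 and 3.07 CPM. No *Bmpr1a*-cKO library reached control replicate 2, the lowest control. The mean fell from 7.95 ± 1.50 to 2.83 ± 1.12 CPM, a Log2FC of -1.50 (SE 0.22; 95% interval -1.97 to -1.02; FDR = 0.000144, edgeR), or 2.82-fold lower.

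Its partner in the inner membrane, *Sun1*, lies at chr5:139200637-139249840 on the plus strand (25 merged exons, of which 302 bases overlap the antisense gene *4930520M14Rik*). *Sun1* CPM was 95.6, 78.1, 98.7 and 94.0 in controls and 84.4, 93.1, 97.1 and 96.2 in *Bmpr1a*-cKO libraries. These values overlapped almost completely, with a control library the lowest and another control library the highest of all 8. Mean CPM was 91.6 ± 9.21 and 92.7 ± 5.80 (Log2FC 0.019; 95% interval -0.14 to 0.18; FDR = 0.881, edgeR).

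For the shelterin genes the groups overlapped as well. *Terf1* (TRF1; chr1:15805646-15844052, plus strand, 10 merged exons) was at 30.0, 39.8, 36.4 and 28.5 CPM in controls and 30.0, 37.6, 39.8 and 41.7 CPM in *Bmpr1a*-cKO libraries. It had the largest difference of the 4 genes not called, 33.7 ± 5.36 against 37.3 ± 5.10 CPM, with a Log2FC of 0.16 (95% interval -0.081 to 0.40; FDR = 0.316, edgeR). This was within the spread of either group. *Terf2* (TRF2; chr8:107069400-107096547, minus strand, 11 merged exons) was at 41.9, 46.0, 39.9 and 43.8 CPM in controls and 45.4, 41.5, 44.7 and 45.4 CPM in *Bmpr1a*-cKO libraries. Its mean was 42.9 ± 2.59 and 44.3 ± 1.88 CPM (Log2FC 0.043; 95% interval -0.10 to 0.19; FDR = 0.683, edgeR). The 95% intervals of all 4 genes lay inside -0.5 to 0.5, so a change of the size that the DEG threshold asks for was outside them. This holds for RNA of the whole ovary scaled by TMM, and a change within germ cells alone was not tested.

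**Figure D2:**
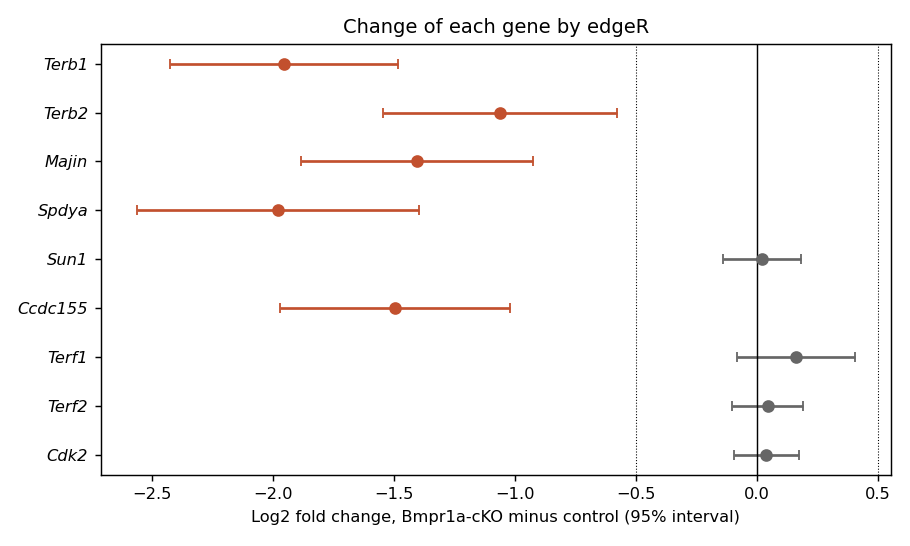
Log2FC (horizontal axis, *Bmpr1a*-cKO minus control) of the 9 genes with 95% intervals from edgeR; dotted lines mark the DEG threshold of 0.5 in each direction. The 5 downregulated genes lie between -1.98 and -1.06, and the other 4 between 0.019 and 0.16.

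The 5 downregulated genes ranked the libraries of a genotype much alike. In every one of the 5, replicate 1 was the lowest of the *Bmpr1a*-cKO libraries. The highest *Bmpr1a*-cKO library was replicate 4 for 3 genes (*Terb1*, *Majin* and *Spdya*) and replicate 3 for the other 2. Among the controls, replicate 2 was lowest for 4 of the 5 (replicate 1 for *Terb2*), and replicate 4 was highest for 4 of the 5 (replicate 3 for *Majin*). Part of this order was shared by genes not called. *Bmpr1a*-cKO replicate 1 was also the lowest of its group for *Sun1*, *Terf1* and *Cdk2*, but not for *Terf2*. Control replicate 2 was the lowest control for *Sun1* too, but the highest for *Cdk2*, *Terf1* and *Terf2*. The germ cell gene *Ddx4* was also lowest in *Bmpr1a*-cKO replicate 1 and highest in *Bmpr1a*-cKO replicate 4, but among the controls it was lowest in replicate 4. With the mean log2 CPM of *Terb1*, *Terb2* and *Majin* as the reference, Pearson's r of the deviations from the genotype means over the 8 libraries was 0.925 for *Spdya* and 0.83 for *Ccdc155*. It was 0.68 for *Sun1*, 0.402 for *Cdk2*, 0.372 for *Terf1* and -0.059 for *Terf2*. For the germ cell genes *Ddx4* and *Dazl* it was 0.579 and 0.634. These r are descriptions over 8 libraries that fall into the 2 genotypes, with the genotype means removed.

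In a whole ovary these genes can be read only in proportion to everything else in the library, and fewer meiotic germ cells cannot be told apart from less RNA per germ cell. RNA of *Sun1*, *Cdk2*, *Terf1* and *Terf2*, which are also used outside meiosis, can come from somatic cells too. Their level within germ cells was not measured. *Ddx4*, the germ cell helicase used as the measure of germ cell RNA, was at 128, 151, 168 and 121 CPM in controls and 106, 167, 159 and 179 CPM in *Bmpr1a*-cKO libraries, with overlapping groups (Log2FC 0.11; FDR = 0.561, edgeR). Set against *Ddx4* in the same library, *Terb1* was at 16.2%, 8.89%, 11.6% and 20.7% of *Ddx4* CPM in controls and 2.92%, 2.23%, 3.61% and 4.07% in *Bmpr1a*-cKO libraries. The separation was kept, and the same was so for *Terb2*, *Majin*, *Spdya* and *Ccdc155*.

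Relative to *Ddx4* CPM, *Spdya* was at 14.0% ± 3.93 in controls and 2.93% ± 1.42 in *Bmpr1a*-cKO ovaries. *Majin* was at 7.12% ± 1.58 and 2.23% ± 0.653, *Ccdc155* at 5.76% ± 1.68 and 1.85% ± 0.597, and *Terb2* at 3.30% ± 1.08 and 1.45% ± 0.375. *Sun1* (65.8% ± 12.7 and 62.5% ± 11.8), *Cdk2* (41.1% ± 6.12 and 39.8% ± 8.10), *Terf2* (30.8% ± 5.33 and 30.3% ± 8.50) and *Terf1* (23.8% ± 1.93 and 24.8% ± 2.59) overlapped between the genotypes on this scale too. The germ cell marker list did not move as one: *Dazl* (Log2FC 0.63, FDR = 0.00101, edgeR) and *Dnd1* (0.78, FDR = 0.00151) were upregulated, and *Ddx4*, *Piwil2* (0.18) and *Gtsf1* (-0.17) were not called. The summed CPM of these 5 markers was 497 to 669 in controls and 587 to 932 in *Bmpr1a*-cKO libraries, and none was at 0. Scaled to this sum instead of by TMM, the median Log2FC of all genes moved to -0.456. On that scale the 5 downregulated genes were between -2.56 and -1.56, and *Sun1* (-0.44), *Cdk2* (-0.42), *Terf2* (-0.40) and *Terf1* (-0.31), whose sign turned, lay above that median and were not called. *Sun1* passed the FDR limit on that scale (FDR = 0.0493, edgeR) but not the Log2FC threshold.

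**Figure D3:**
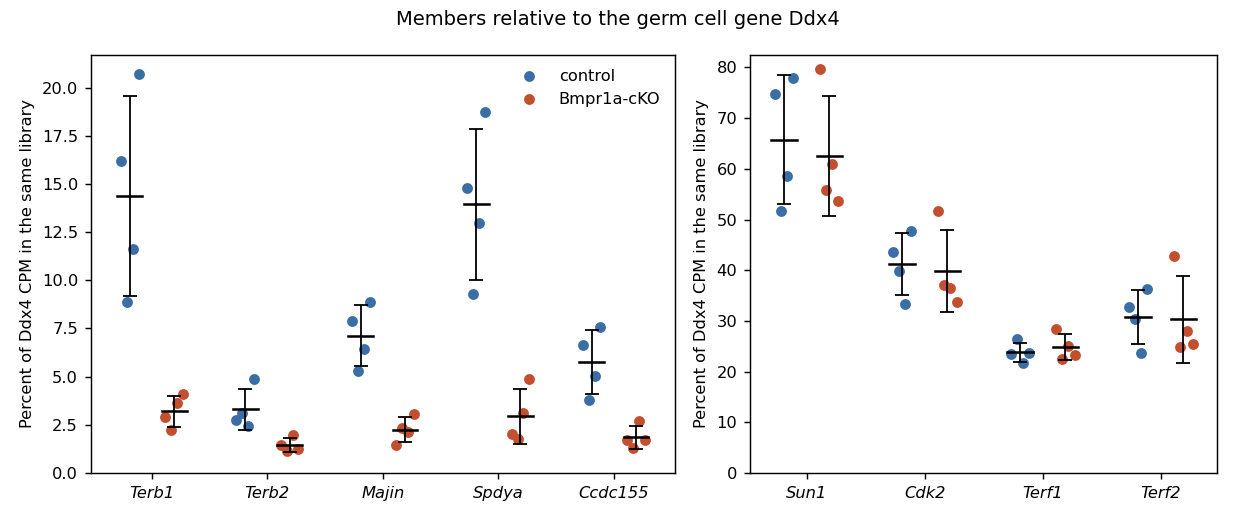
CPM of each gene as a percent of *Ddx4* CPM in the same library (vertical axes, from 0; the panels differ in scale), with control and *Bmpr1a*-cKO libraries as points, means as wide bars and SD as error bars. The 5 genes in the left panel separate by genotype, with *Terb1* at 8.89% to 20.7% in controls and 2.23% to 4.07% in *Bmpr1a*-cKO libraries, and the 4 genes in the right panel overlap.

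The ratio of a meiotic gene to its binding partner within a library hardly depends on how the libraries are scaled. In a whole ovary the RNA of the partner can also come from somatic cells, so this is not a ratio within germ cells. For 3 pairs of genes whose products bind each other, the log2 ratio of CPM (with a prior count of 2, which draws the ratios of low genes together) was compared by an exact permutation test over the libraries. *Spdya* over *Cdk2* was -1.55, -2.08, -1.36 and -1.34 in controls and -4.57, -4.34, -3.52 and -2.77 in *Bmpr1a*-cKO libraries. All *Bmpr1a*-cKO ratios were below all control ratios, and the means differed by -2.22. *Terb1* over *Terf1* was -0.53, -1.55, -0.89 and -0.19 in controls and -3.21, -3.28, -2.75 and -2.49 in *Bmpr1a*-cKO libraries, a difference of -2.14. *Ccdc155* over *Sun1* was -3.47, -3.72, -3.52 and -3.34 in controls and -5.44, -5.33, -4.45 and -4.90 in *Bmpr1a*-cKO libraries, a difference of -1.51. For each of the 3 ratios the exact permutation test (two-sided) gave p = 0.0286, the smallest value that the 70 arrangements of 4 against 4 libraries allow, and 0.0286 after Benjamini-Hochberg adjustment over the 3. In each pair the fold change of the numerator had been measured in the same libraries, so these ratios are another view of the same counts and not further evidence.

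**Figure D4:**
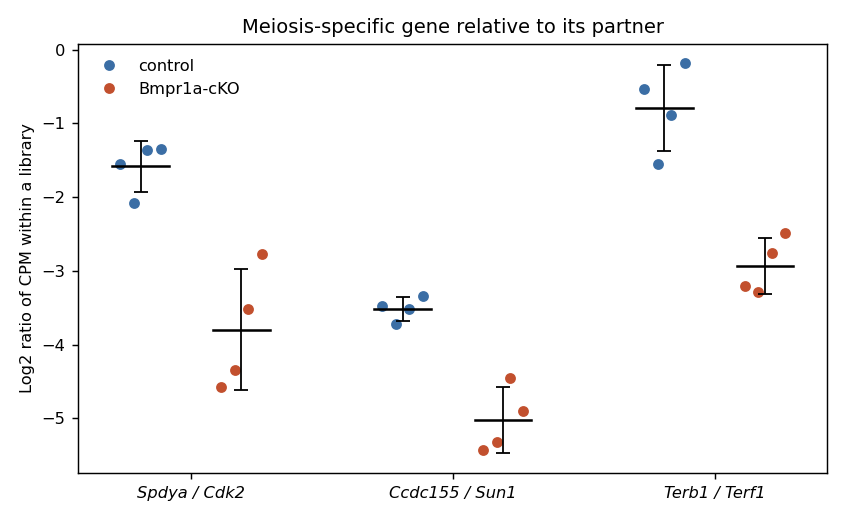
Log2 ratio of CPM of a meiotic gene to its partner within each library (vertical axis, log2 scale with a prior count of 2); points are libraries, wide bars means and error bars SD. For *Spdya* over *Cdk2* the mean is -1.58 in controls and -3.80 in *Bmpr1a*-cKO, for *Ccdc155* over *Sun1* -3.51 and -5.03, and for *Terb1* over *Terf1* -0.79 and -2.93, without overlap.

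Levels were compared between genes per kilobase of merged exons. This length joins the exons of all annotated transcripts, with 7 transcripts and 6219 bases for *Cdk2* against 4 and 2198 for *Spdya*. The order of the genes can depend on that choice of length, and no other length was tried. In control ovaries *Sun1* was highest at 12.1 ± 1.21 CPM per kb, followed by *Terf2* (9.33 ± 0.563), *Cdk2* (9.24 ± 0.324), *Spdya* (8.80 ± 1.75) and *Terf1* (7.31 ± 1.16). *Majin* (6.03 ± 0.809), *Terb1* (5.25 ± 1.27), *Ccdc155* (3.36 ± 0.634) and *Terb2* (2.15 ± 0.471) were lower. Each gene overlapped the next in this order except *Sun1* and *Terf2*. In *Bmpr1a*-cKO ovaries *Sun1* was still highest (12.2 ± 0.763 CPM per kb), but *Spdya* had dropped to 2.13 ± 1.34, beside *Majin* at 2.17 ± 0.982. A gap without overlap now lay between *Terf1* (8.09 ± 1.11 CPM per kb) and *Majin*, so that the 4 genes not called were the upper group. *Terb1* (1.33 ± 0.513), *Ccdc155* (1.20 ± 0.472) and *Terb2* (1.04 ± 0.326 CPM per kb) were the lowest. Within the attachment complex, *Majin* and *Terb1* overlapped in control ovaries, and every *Terb2* library lay below every *Terb1* library.

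Lists of genes around the attachment machinery were read in the same fit, in which 4.06% of all genes tested were downregulated and 6.11% upregulated. A single call in a short list is to be read beside these shares. Of 8 other shelterin and telomere genes, 1 was downregulated and 0 upregulated (median Log2FC -0.095). The 1 was *Fbxo47*, a meiotic F-box gene linked to shelterin, at 18.0 ± 2.26 CPM in controls and 8.38 ± 1.46 CPM in *Bmpr1a*-cKO ovaries (Log2FC -1.10, FDR = 2.19e-05, edgeR). The protein that bridges TRF1 and TRF2, TIN2 (*Tinf2*), had a Log2FC of -0.45 (FDR = 0.00114, edgeR) and was not called, as it missed the Log2FC threshold. In the other direction, *Pot1a* (0.35, FDR = 0.00283, edgeR) missed it too. Of 9 other genes of LINC complexes, which couple the nucleus to the cytoskeleton, *Syne3* was upregulated (0.73, FDR = 0.00786, edgeR) and *Syne4* downregulated (-0.65, FDR = 0.00881). Their median Log2FC was 0.21, and *Sun2*, the paralogue of *Sun1*, was at -0.22 (FDR = 0.0134, edgeR) and not called, as it missed the Log2FC threshold. Among those that were higher, *Tor1a* (0.30, FDR = 0.00601) and *Tor1aip2* (0.27, FDR = 0.00144, edgeR) missed it as well.

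Of 9 genes of the nuclear lamina and inner membrane, 1 was upregulated, the lamin B receptor gene *Lbr* (Log2FC 0.69, FDR = 5.33e-06, edgeR), and 0 were downregulated (median 0.14). *Lmnb1* (0.38, FDR = 0.00037) and *Lmnb2* (0.35, FDR = 0.00137) were higher and *Lmna* (-0.32, FDR = 0.0215, edgeR) lower, and these missed only the Log2FC threshold. The motor that KASH5 recruits was represented by 20 genes of dynein, dynactin and their regulators (*Pafah1b1*, *Nde1* and *Ndel1*). Of these 1, the light chain gene *Dynlt1a*, was upregulated (0.51, FDR = 0.00274, edgeR) and 0 were downregulated (median 0.12). *Dynll1* (0.41, FDR = 0.000609, edgeR) was higher and missed only the Log2FC threshold. A list of 8 tested genes held partners and inhibitors of CDK2 and also *Cdk1*, which encodes a kinase itself. Among them the mitotic genes *Ccna2* (0.63, FDR = 1.69e-06) and *Cdk1* (0.65, FDR = 5.24e-06) were upregulated, and *Ccne2* (-0.65, FDR = 0.000761) and *Inca1* (-1.85, FDR = 0.000139) were downregulated. Of 7 genes of the meiotic axis and cohesin, to which telomere ends are joined, 5 were downregulated (the 4 with the largest change were *Rad21l* -2.49, *Sycp3* -1.36, *Sycp2* -1.09 and *Smc1b* -1.05) and 0 upregulated, with a median of -1.05. *Rec8* (-0.49, FDR = 0.000288, edgeR) missed only the Log2FC threshold, and *Hormad1* (-0.36, FDR = 0.0604) was not called either. Of the 6 lists, this was the one whose median lay nearest to that of the 9 attachment genes.

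**Figure D5:**
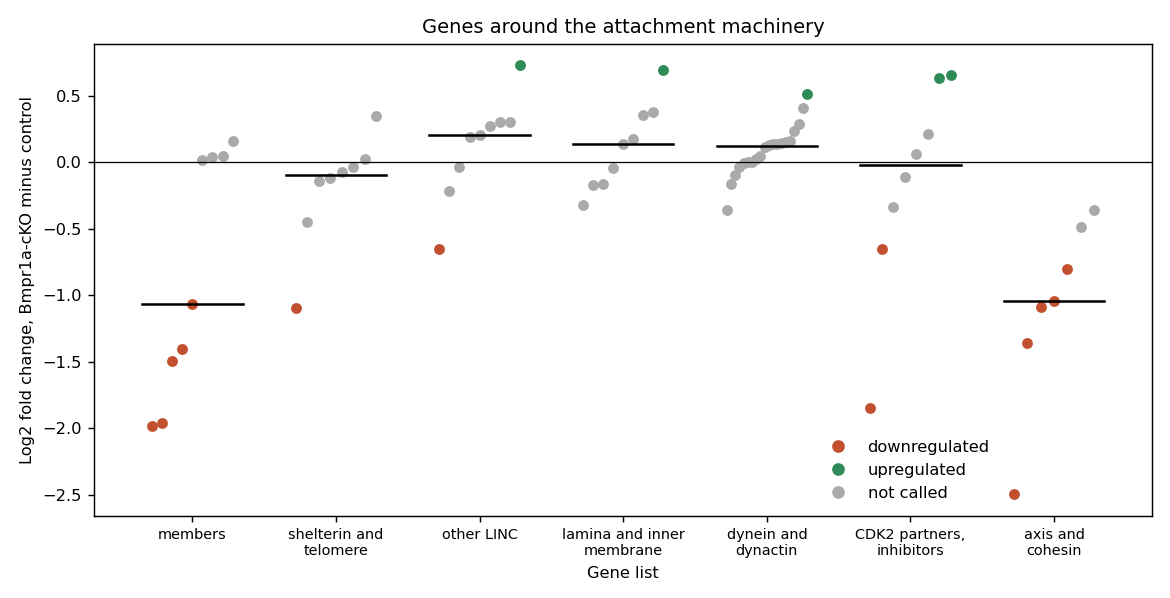
Log2FC (vertical axis, *Bmpr1a*-cKO minus control) of the 9 attachment genes ("members") and of 6 lists of related genes; each point is a gene, coloured by its call, and bars are list medians. The 9 genes (median -1.06) and the axis and cohesin genes (median -1.05) lie lowest, and the medians of the other lists lie between -0.095 and 0.21.

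The patterns most like that of *Terb1*, *Terb2* and *Majin* over the 8 libraries were those of *Sox30*, *Atf7ip2*, *Ugt8a*, *Npat* and *Spata5*, with Pearson's r of log2 CPM from 0.9954 to 0.9983 and r of the deviations from the genotype means from 0.9763 to 0.9928. The libraries fall into the 2 genotypes, which raises the former value. These genes were also picked for the highest r among all genes tested outside the listed ones, and such a choice raises both values. *Gm4969*, the older symbol of the meiotic initiator gene *Meiosin*, had r of deviations of 0.979, and *Stra8* of 0.817. *Gm4969* was at 73.9 to 109 CPM in controls and 16.1 to 35.3 CPM in *Bmpr1a*-cKO libraries, without overlap, and *Stra8* at 98.2 to 120 and 96.0 to 153 CPM, with overlap.

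Markers of other cells of the ovary were read in the same libraries. Of 5 pregranulosa markers 1, *Foxl2*, was downregulated (Log2FC -0.57), and their summed CPM was 734 to 789 in controls and 544 to 674 in *Bmpr1a*-cKO libraries. *Rspo1* (-0.48, FDR = 0.000112), *Wnt4* (-0.35, FDR = 0.0104), *Fst* (-0.31, FDR = 0.00359) and *Amhr2* (-0.26, FDR = 0.0112, edgeR) were also lower and missed only the Log2FC threshold. Of 4 macrophage markers, *Adgre1* (0.78) and *C1qa* (0.69) were upregulated, with sums of 22.8 to 27.6 and 30.5 to 37.6 CPM. No marker of stroma (4), endothelium (4), erythroid cells (3 tested), mesonephros (4) or testis somatic cells (3) was called, and *Hba-a1* was at 0 counts in all libraries. Of these, *Sox9* of testis somatic cells (-0.44, FDR = 0.0135) and the erythroid *Hbb-y* (-0.30, FDR = 0.0326, edgeR) were lower and missed only the Log2FC threshold. The part of these shifts in the change of the 5 downregulated genes was not tested.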

How the data were processed

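Strand-specific libraries were made by the authors from total RNA of pooled ovaries. Per the labels and the submitters' processing notes, reads were trimmed with Trimmomatic 0.39, checked with FastQC 0.11.9 and mapped with STAR 2.5.2 to mm10, and the authors deposited raw counts per gene symbol for each library. The annotation and the strand setting of the counting are not given in the sources used here. A CPM table of the whole series was not used.

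From the counts, genes were kept by filterByExpr, library sizes took TMM factors, and the genotypes were compared by edgeR 4.0.16 (quasi-likelihood) in R 4.3.3 (limma 3.58.1; two-sided; Benjamini-Hochberg adjustment over 14249 genes). The thresholds follow the study's methods. All 9 genes are named; of each list the DEGs, at most the 4 with the largest change, and a few members not called, chosen after their values were seen. The genes, lists and tests were chosen with earlier results of these data known. No libraries agreed within sampling noise. The procedure was tested on simulated data. Alternatives were a likelihood ratio test, limma-voom, DESeq2 1.42.0, other scalings, filters and thresholds, a replicate block and each library left out. Promoters came from RefSeq and positions from GENCODE vM21. A comparison of the proteins was planned and is not given here.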

Additional observations from a re-analysis of the deposited data

How the results depend on the processing

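All 5 downregulated genes were called under each of the 21 alternatives, and the other 4 under none. Of 171 recomputed Log2FCs, 160 kept their direction and their side of the threshold, and 11 turned sign, all of genes not called. *Sun1* was at -0.0147 with upper-quartile scaling, -0.0752 with *Ddx4* scaling, and -0.442 with germ cell marker scaling. With each library left out in turn it ran from -0.0575 (without control replicate 2) to 0.0587 (without *Bmpr1a*-cKO replicate 1). Germ cell marker scaling gave -0.308 for *Terf1*, -0.404 for *Terf2* and -0.419 for *Cdk2*, and *Ddx4* scaling -0.0317 for *Terf2* and -0.0524 for *Cdk2*. With each library left out, the Log2FC ran from -2.25 to -1.82 for *Terb1*, -1.25 to -0.91 for *Terb2*, -1.71 to -1.20 for *Majin*, -2.55 to -1.78 for *Spdya* and -1.72 to -1.37 for *Ccdc155*. The differences of the log2 ratios ran from -2.56 to -1.96 (*Spdya* over *Cdk2*), -1.71 to -1.38 (*Ccdc155* over *Sun1*) and -2.40 to -1.94 (*Terb1* over *Terf1*), where p could not go below 0.0571 in an exact permutation test of 35 arrangements. Over all genes, DEGs numbered 1449 in the analysis reported, 5798 with germ cell marker scaling (5.04% of them upregulated against 60.1%), 725 with *Ddx4* scaling (52.4% upregulated), 4242 by FDR alone and 501 at an absolute Log2FC over 1. Both germ cell scalings moved the median of all genes, to -0.456 and -0.0869. A replicate block gave 1457 DEGs and the same count of 5 among the 9 genes. Whether the replicate numbers pair the libraries is not given, and the correlations could not settle it. The r of same-numbered deviations was 0.198, 0.161, 0.108 and -0.0871. Control replicates 1 and 2 correlated best with their own number, and control replicates 3 and 4 with another number. Depth limits *Terb2* most, at 13 to 93 counts per library.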
